A study of Mus musculus with 6 samples.

Results

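The genes that mark B cells and plasma cells were examined in RNA from WT and AMPK KO CD4 T cells of mice. The list held 34 genes, 26 of B cells and 8 of plasma cells, out of 23282 genes in the deposited tables, and all 34 were found, Tent5c under its older symbol Fam46c. The rule also called for immunoglobulin constant genes. It matched 1 symbol, Ighmbp2, a helicase gene that only shares the letters, so immunoglobulin constant genes are not analysed here.

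Both groups carried loxP-flanked Prkaa1 alleles on the C57BL/6 background. In AMPK KO mice CD4Cre deletes Prkaa1, which encodes the AMPKα1 subunit, and in WT mice (Prkaa1fl/fl, CD4Cre-neg) it is kept, so the presence of Cre goes with the genotype. CD4Cre is driven by the Cd4 gene and acts in the T lineage, not in B cells. The methods give female mice of 6 to 8 weeks unless specified otherwise. Cells came from spleen and lymph nodes, with 3 samples per group, rested 1 h, and then received anti-CD3 and anti-CD28, each at 2 µg/mL. The stimulation lasted 24 h by the labels and 6 h by the methods. The methods name microbeads or a cell sorter for the isolation. The reporting summary names magnetic separation for cells used in vitro, with purity checked by flow cytometry and given only as a lower bound. The study describes the 3 samples per group as biologically independent but does not say how many mice each came from. The p values therefore measure the spread between these samples, which need not be that between mice.

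B cells recognise antigen through a surface immunoglobulin that signals by the paired chains CD79A and CD79B, and the kinases and adaptors behind them carry the signal inward. Their identity is kept by transcription factors such as PAX5 and EBF1. Plasma cells, the antibody-secreting descendants of B cells, switch much of that programme off, enlarge the endoplasmic reticulum under XBP1 and PRDM1, and make the J chain that joins polymeric IgM and IgA. Neither programme belongs to CD4 T cells. Some members have wider use, however. For example, Cd37, Pou2f2, Txndc5 and Tent5c are also expressed by T cells, and Spib, Bcl11a and Ly6d by plasmacytoid dendritic cells. Members not named here may have wider use as well.

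The values were log2 of the normalized expression plus 1, from 3′ end libraries. Whole reads could be recovered from them. The libraries held 9575096 to 10168121 reads on genes in WT and 10515155 to 11185360 in AMPK KO, of which Rn45s, the ribosomal RNA precursor, took 20.7% to 24.9% and 8.48% to 10.8%. Prkaa1 had log2 means of 4.92 ± 0.30 (SD, n = 3) in WT and 4.49 ± 0.36 in AMPK KO, with groups that overlapped (limma, adjusted p = 0.357), so its level does not check the labels. Xist, the RNA of the inactive X chromosome, ranged from 8 to 32 reads in WT and from 1998 to 2876 in AMPK KO, and the Y-linked gene Ddx3y had 3158 to 3462 and 1296 to 1840, although the methods name female mice. Every AMPK KO library thus held reads of both genes, so each appears to mix cells of male and female mice. Cell sex and genotype therefore cannot be told apart in any comparison here. The T cell genes Cd3e, Cd3g and Cd4 each had between 809 and 1606 reads per WT library and between 747 and 1305 per AMPK KO library. Markers of CD8 T cells and erythroid cells also had reads, with sums given below. Fewer cells of a type and less RNA per cell cannot be told apart in such bulk RNA.

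Of the plasma cell genes, Jchain rose in AMPK KO and no other gene passed the test. Jchain was 6.06-fold higher, and 5 other plasma cell genes had means that differed by 0.02 to 1.20 on the log2 scale, AMPK KO higher, without passing. Derl3 also did not pass, and it entered the test only through its level in AMPK KO. None of the 25 tested B cell genes passed. Differences were tested with limma over the 11279 genes with a mean log2 value of at least 1, two-sided, with Benjamini-Hochberg adjustment and a threshold of 0.05. Of all genes tested, 2.54% were called higher, 3.1% lower and 5.65% in either direction. The members thus gave 1 call among 32 tested genes. Pax5 and Tnfrsf17 fell below the filter.

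Jchain encodes the joining chain of polymeric immunoglobulins and lies on chromosome 5 (GRCm38, 88519809 to 88527891, minus strand), where no other annotated gene overlaps it. The WT samples had log2 values of 5.84, 6.01 and 5.87, and the AMPK KO samples had 8.54, 8.62 and 8.36. These rest on 517, 634 and 509 reads and on 4391, 4206 and 3887 reads. All AMPK KO samples lay above all WT samples, and the gap was far wider than the spread within either group. WT had a mean of 5.91 ± 0.09 (SD, n = 3) and AMPK KO of 8.50 ± 0.13 (SD, n = 3), and the log2 fold change was 2.60 (standard error 0.14, 95% confidence interval 2.29 to 2.91, limma, adjusted p = 5.8e-08). By exact permutation of the samples, two-sided, p was 0.1, the smallest that 3 samples against 3 allow. By log2 fold change, Jchain ranked 10 from the top of the 11279 tested genes.

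**Figure D1:**
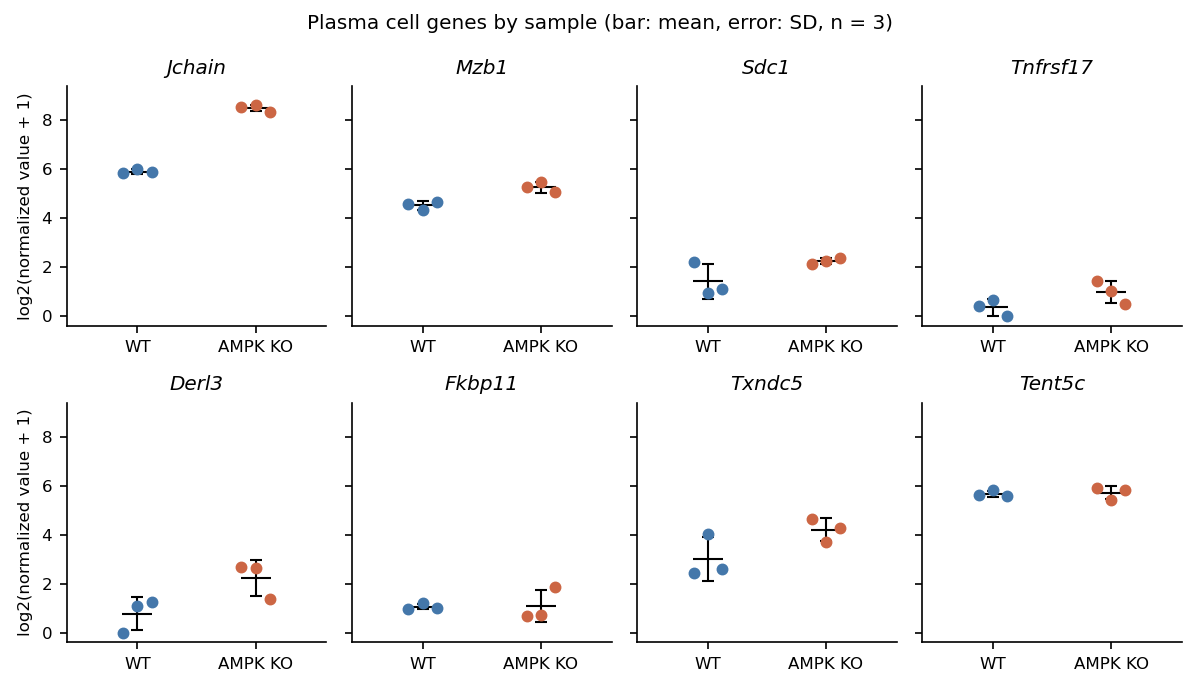
The y axis gives log2(normalized value + 1) for each of the 8 plasma cell genes, with 1 point per sample, bars at the mean and error bars of 1 SD (n = 3). Jchain lay at 8.36 to 8.62 in AMPK KO and at 5.84 to 6.01 in WT, whereas Tent5c overlapped between the groups.

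The promoters of Jchain and Txndc5 are shown because Jchain was the member that passed the test and Txndc5 the plasma cell gene whose window held a searched motif. The sequences are the 250 bases before the start site on the gene's own strand, from RefSeq (GRCm38.p6), at chr5:88527898-88528147 for Jchain and chr13:38527915-38528164 for 1 of the start sites of Txndc5. Capitals mark the letters TGACGTGG, which XBP1 is known to bind.
Jchain: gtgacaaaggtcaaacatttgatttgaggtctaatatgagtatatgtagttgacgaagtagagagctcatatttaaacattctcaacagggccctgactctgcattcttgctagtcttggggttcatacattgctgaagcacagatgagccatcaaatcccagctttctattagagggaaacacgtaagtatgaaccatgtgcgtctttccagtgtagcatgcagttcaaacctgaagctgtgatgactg
Txndc5: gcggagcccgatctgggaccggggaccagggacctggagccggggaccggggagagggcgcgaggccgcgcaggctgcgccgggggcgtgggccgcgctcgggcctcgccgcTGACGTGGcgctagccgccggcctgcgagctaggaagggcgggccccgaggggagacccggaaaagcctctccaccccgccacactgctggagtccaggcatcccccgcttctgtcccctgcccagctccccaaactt
Windows of 300 bases, which also take in the first 50 bases after the start site, were searched on both strands for 3 motifs, none of which contains another, and 29 of the 34 members had a window. TGACGTGG was found for Pou2af1 and Txndc5, beginning 138 bases before the start site in the latter, and in 0.714% of all 27025 genes with a window. ATGCAAAT, the octamer bound by POU2F2 with its cofactor POU2AF1, was found for Blnk and Vpreb3 and in 1.97% of all genes. GAGGAAGT, a form bound by PU.1 and SPIB, was found for Cd72, Cd37 and Fcrl1 and in 3.69% of all genes. The Jchain window held none of these letters, which says nothing of other sites.

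Mzb1 encodes a chaperone of the endoplasmic reticulum that assists the assembly of IgM. It lies on chromosome 18 (35647267 to 35649367, minus strand), where SPATA24 overlaps it on the same strand without covering its 3′ end. Its log2 values were 4.57, 4.34 and 4.66 in WT and 5.26, 5.50 and 5.05 in AMPK KO, from 192 to 475 reads. The groups did not overlap, and the log2 fold change was 0.75 (standard error 0.22, limma, adjusted p = 0.0566). Mzb1 thus missed the threshold narrowly, and it passed in 2 of 14 alternatives. Within each library, Jchain was set against Mzb1 as a log2 ratio of normalized values. The ratio was 1.31, 1.72 and 1.25 in WT and 3.32, 3.15 and 3.34 in AMPK KO, so Jchain and Mzb1 did not scale together between the groups.

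The proteins of the secretory pathway on the list gave lower and more variable values. Derl3, which takes part in the disposal of misfolded proteins, had log2 values of 0.00, 1.07 and 1.24 in WT and 2.68, 2.64 and 1.38 in AMPK KO. WT sample 1 had 0 reads, where up to 3 reads cannot be told from none, and the AMPK KO samples had 64, 56 and 19. AMPK KO sample 3 lay close to the WT samples. With a WT mean of 0.77, under the filter of 1, and an AMPK KO mean of 2.23, Derl3 was admitted only through AMPK KO, so its difference is given as a description. It was 1.46 as deposited, 2.24 with a pseudocount of 0.25 and 3.0 with voom on the recovered reads. Txndc5, a protein disulfide isomerase, had log2 values of 2.42, 4.03 and 2.58 in WT and 4.65, 3.71 and 4.25 in AMPK KO. WT sample 2 lay above AMPK KO sample 2, and the log2 fold change was 1.20 (standard error 0.41, limma, adjusted p = 0.103). These 2 libraries decided the call, since the adjusted p of Txndc5 in limma was 0.0155 with WT sample 2 left out and 0.0332 with AMPK KO sample 2 left out. The annotation places Bmp6 on the opposite strand over the 3′ end of Txndc5, and no source states whether reads were counted by strand.

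Fkbp11, a peptidyl-prolyl isomerase of secretory cells, had log2 values of 0.98, 1.20 and 1.01 in WT and 0.67, 0.72 and 1.85 in AMPK KO, from 7 to 31 reads. Only AMPK KO sample 3 stood above the rest, and the log2 fold change of 0.02 carried a 95% confidence interval of -0.995 to 1.03. Tent5c, a poly(A) polymerase that stabilises immunoglobulin transcripts, had log2 values of 5.60, 5.82 and 5.60 in WT and 5.89, 5.43 and 5.84 in AMPK KO. The groups overlapped, with a log2 fold change of 0.04 and an interval of -0.36 to 0.45. Scaling by reads other than those of Rn45s turned the direction of both genes.

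Of the surface molecules, Sdc1 encodes syndecan-1, the CD138 of plasma cell gates. Its log2 values were 2.23, 0.93 and 1.09 in WT and 2.13, 2.24 and 2.36 in AMPK KO. WT sample 1 lay inside the AMPK KO range and apart from the other WT samples, and the log2 fold change was 0.83 (standard error 0.44, limma, adjusted p = 0.302). Tnfrsf17 encodes BCMA, a survival receptor for APRIL and BAFF. It had 3, 6 and 0 reads in WT and 20, 11 and 5 in AMPK KO, too few for the test.

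**Figure D2:**
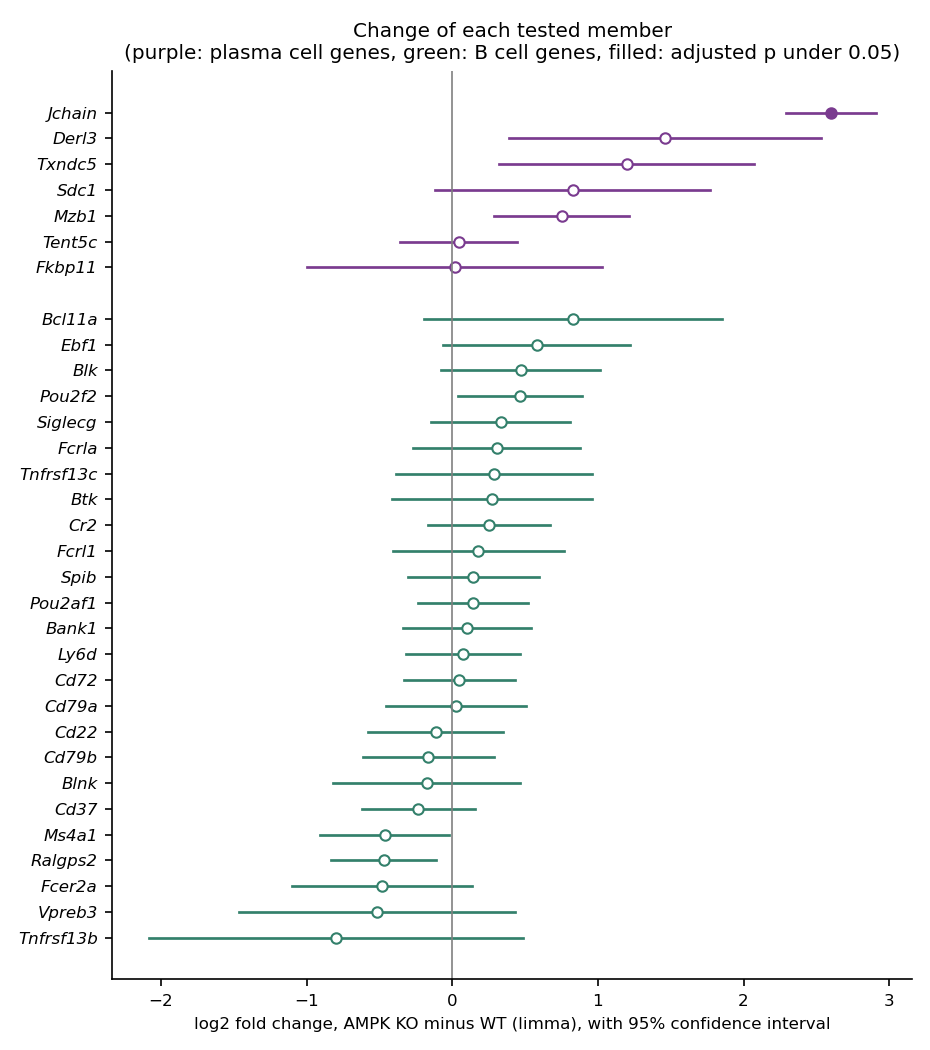
The x axis gives the log2 fold change, AMPK KO minus WT, from limma for the 32 tested members, with bars for the 95% confidence interval. Jchain, the filled point at 2.60, stands apart, and the B cell genes lie between -0.80 and 0.83.

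Across the B cell genes, AMPK KO had the higher mean for 16 and the lower mean for 9. Their log2 fold changes had a median of 0.10, beside 0.02 over all genes tested. This median was 0.04 with 14 genes higher when scaled by reads other than those of Rn45s, and -0.0033 with 12 higher when WT sample 2 was left out, so 1 library turned its sign. None passed the test, a count of 0 in limma, and 3 had an unadjusted p under 0.05, against 21.3% of all genes. The count was also 0 with voom on the recovered reads and in every other alternative but 1, the fit without AMPK KO sample 2, which called Pou2f2. WT and AMPK KO values were fully separate for 5 of the 25 genes, or 20%, and for 25.6% of all genes tested. The precision of these values was moderate. The half-width of the 95% confidence interval was 0.48 at the median and 0.36 to 1.29 over the genes, and the interval lay within 1 log2 unit of no change for 19 of 25.

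Ms4a1 encodes CD20, the B cell surface protein targeted by depleting antibodies. Its log2 values were 5.67, 5.52 and 5.33 in WT and 5.11, 4.73 and 5.29 in AMPK KO, so the groups did not overlap, by a margin of hundredths. The log2 fold change was -0.46 (standard error 0.21, limma, adjusted p = 0.215). Siglecg, an inhibitory sialic acid receptor of B cells, went the other way, with 4.41, 4.29 and 4.37 in WT and 4.67, 4.82 and 4.58 in AMPK KO. The difference of 0.33 (standard error 0.22) missed the threshold (limma, adjusted p = 0.423).

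The chains of the B cell receptor complex showed no shift of the group means beyond their spread. Cd79a had log2 values of 5.48, 5.12 and 5.33 in WT and 5.28, 5.76 and 4.96 in AMPK KO. The log2 fold change was 0.02, with an interval of -0.46 to 0.50. Cd79b had 5.58, 5.78 and 5.98 in WT and 5.50, 6.03 and 5.33 in AMPK KO. The log2 fold change was -0.16, with an interval of -0.61 to 0.28. For both, the highest and the lowest value came from AMPK KO, in samples 2 and 3. The inhibitory receptors Cd22 and Cd72, the complement receptor Cr2, the tetraspanin Cd37 and Ly6d had log2 fold changes of -0.23 to 0.25, and all of them overlapped between the groups. Fcer2a, the low-affinity IgE receptor CD23, had a log2 fold change of -0.48 (standard error 0.29) from 110 to 175 reads per library. Genes on the opposite strand cover the 3′ ends of Ms4a1, Cd72 and Cd37.

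Of the signalling genes, Blk, a SRC family kinase behind the B cell receptor, had log2 values of 4.36, 4.09 and 3.67 in WT and 4.44, 4.58 and 4.51 in AMPK KO. All AMPK KO samples lay above WT, and the log2 fold change was 0.47 (standard error 0.26, limma, adjusted p = 0.315). Ralgps2, an exchange factor for Ral GTPases, had 6.05, 6.01 and 5.93 in WT and 5.59, 5.42 and 5.57 in AMPK KO. Its log2 fold change of -0.47 (standard error 0.17) came with the lowest adjusted p of the B cell genes, 0.119 in limma. The adaptor genes Blnk and Bank1 and the X-linked kinase gene Btk had overlapping groups and log2 fold changes of -0.18, 0.10 and 0.27. A gene on the opposite strand covers the 3′ end of Bank1.

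Among the transcription factors, the means of all 5 tested genes were higher in AMPK KO, with log2 fold changes of 0.14 to 0.83, and 0 of them passed. Pou2f2, which encodes OCT2, had log2 values of 5.71, 5.68 and 5.58 in WT and 6.15, 5.73 and 6.50 in AMPK KO. The groups did not overlap, although AMPK KO sample 2 was nearly level with WT sample 1, and the log2 fold change was 0.46 (standard error 0.20, limma, adjusted p = 0.197). Without that sample it was 0.66 (limma, adjusted p = 0.0227), and it did not pass with any other library left out. Ebf1, which specifies the B lineage, had 4.24, 4.38 and 3.50 in WT and 4.66, 4.17 and 5.04 in AMPK KO, and its log2 fold change was 0.58 (standard error 0.30). Bcl11a had the largest value, 0.83 (standard error 0.48), from 10 to 82 reads, and it ranged from 0.53 without WT sample 2 to 1.24 without WT sample 1. Spib and Pou2af1 differed by 0.15 and 0.14. Pax5 had 0, 0 and 5 reads in WT and 3, 0 and 0 in AMPK KO, at or near the floor of 3 reads in all but 1 library. The defining factor of the B lineage was thus not detectable in most libraries. Cd79a had 337 to 570 reads in the same libraries, and the cause of the low Pax5 reads was not tested.

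The remaining B cell genes were low or even. Fcrla and Fcrl1, Fc receptor-like genes of B cells, had log2 fold changes of 0.30 and 0.18, and Vpreb3 had -0.51 from 12 to 51 reads. Tnfrsf13c, the BAFF receptor, had 0.29 (standard error 0.32). Tnfrsf13b, which encodes TACI, had the widest interval of the B cell genes, -2.09 to 0.49, and passed the filter only through WT. WT sample 3 had 52 reads and the other libraries 0 to 20. Its difference was -0.80 as deposited, -1.39 with a pseudocount of 0.25, -2.22 with voom and -0.13 without WT sample 3. The highest value of a B cell gene fell in AMPK KO sample 2 for 9 of 25 genes, among them Cd79a, Cd79b, Cd72 and Blnk, and in WT sample 2 for 0. The lowest fell most often in AMPK KO sample 3, for 8 genes.

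**Figure D3:**
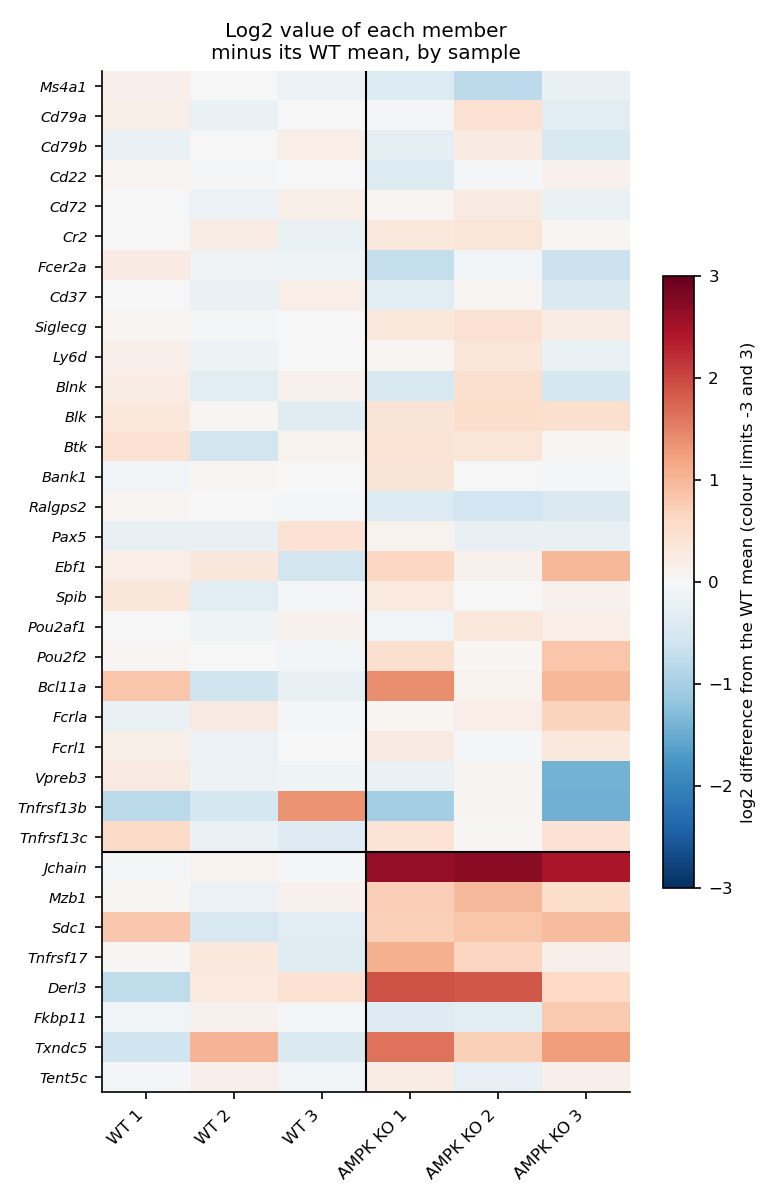
Colours give the log2 value of each of the 34 members in each sample minus the mean of the WT samples, from blue (lower) to red (higher). The Jchain row is dark red in all 3 AMPK KO samples, and the B cell rows above the line are paler, within -0.80 to 0.83 as group means.

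The summed level, the sum over a list of the normalized values on a linear CPM scale, put these differences on a common scale. For the 26 B cell genes it was 762 to 852 in WT and 801 to 882 in AMPK KO, with means of 809 ± 45 (SD, n = 3) and 832 ± 43.7 (SD, n = 3), a ratio of 1.03. Within that list the sums of the transcription factor genes did not overlap, at 153 to 177 in WT and 179 to 232 in AMPK KO, a ratio of 1.25. Those of the Fc receptor-like genes with Vpreb3 did not overlap either, at 30.9 to 33.0 and 34.1 to 41.2, a ratio of 1.14. Taken singly, 1 of 5 tested transcription factor genes and 0 of these 3 genes had separate groups. How often such sums separate by themselves was not examined. The sums of the surface receptor, signalling, and BAFF and APRIL receptor genes overlapped, with ratios of 0.967, 0.939 and 1.04. For the 8 plasma cell genes it was 136 to 157 in WT and 442 to 501 in AMPK KO, a ratio of 3.35. In AMPK KO most of that sum was Jchain. Without it, the sums were 79.6 to 93.9 in WT and 109 to 131 in AMPK KO, a ratio of 1.40. The log2 ratio of Jchain to Cd79a within a library went from 0.61 ± 0.28 (SD, n = 3) in WT to 3.21 ± 0.29 (SD, n = 3) in AMPK KO, and that of Mzb1 to Cd79a from -0.82 ± 0.13 to -0.06 ± 0.18, so both stood higher relative to the B cell receptor chain in AMPK KO.

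**Figure D4:**
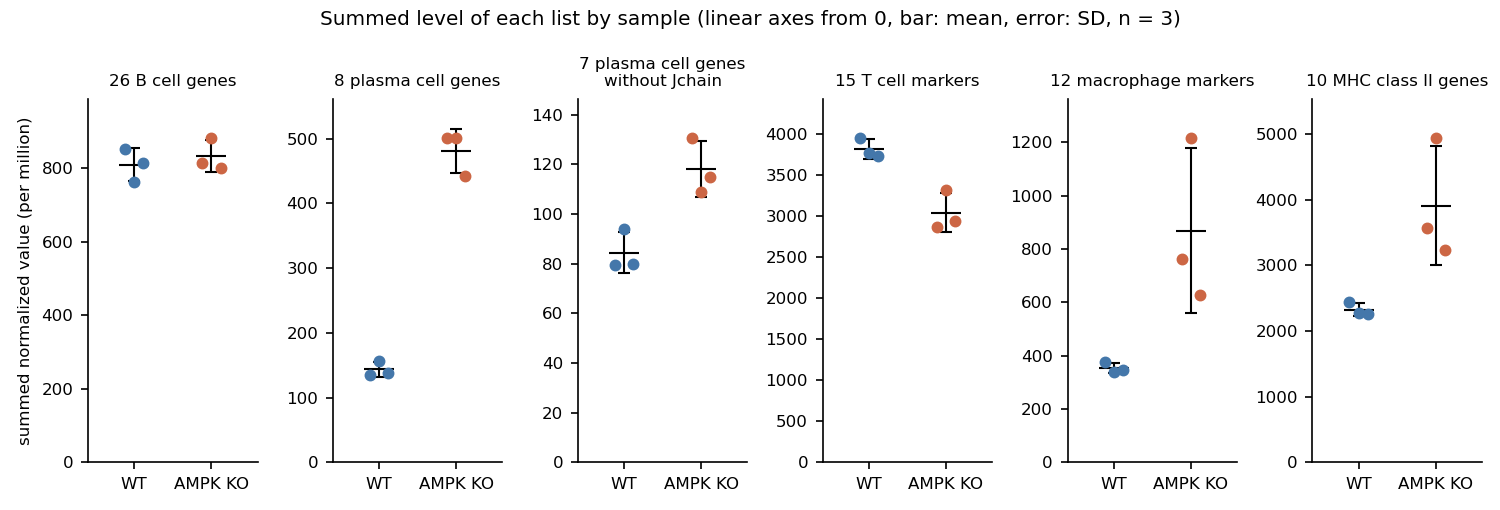
The y axes, linear and starting at 0, give the summed normalized value (CPM scale) of 6 lists, with 1 point per sample, bars at the mean and error bars of 1 SD (n = 3). The B cell sum lay at 762 to 882 over all samples, and the plasma cell sum was 3.35 times as high in AMPK KO as in WT.

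Other genes of the B cell receptor pathway were described from a list of 19, all tested. In AMPK KO 13 means were higher and 6 lower, 2 genes passed as higher and 0 as lower, and 0.14 was the median log2 fold change. The calls were Cd81, a tetraspanin that B cells share with T cells and myeloid cells, and Cxcr5, the homing receptor for B cell follicles that follicular helper T cells share. Cd81 differed by 0.82 on the log2 scale (standard error 0.18, limma, adjusted p = 0.0146), and Cxcr5 had 0.84 (standard error 0.21, limma, adjusted p = 0.0314). In both, all AMPK KO samples lay above all WT samples. The call of Cd81 was lost in 4 of its 14 alternatives and that of Cxcr5 in 7.

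Of 20 regulators of plasma cells and genes of the secretory pathway, the means of 17 were higher and 2 genes passed, both higher, and 0.37 was the median log2 fold change. The called genes were Creld2 at 1.58 (standard error 0.41, limma, adjusted p = 0.0369) and Manf at 1.14 (standard error 0.29, limma, adjusted p = 0.0352), both secreted in the stress response of the endoplasmic reticulum and made by many cell types. Each kept its call in 7 of 14 alternatives. Prdm1, which encodes BLIMP1, had log2 values of 3.83, 4.02 and 3.04 in WT and 4.22, 4.04 and 4.25 in AMPK KO. The groups did not overlap, by a margin of hundredths, and the log2 fold change was 0.54 (standard error 0.30, limma, adjusted p = 0.325). Irf4, which activated T cells also express, had a log2 fold change of -0.35 (standard error 0.18, limma, adjusted p = 0.294). Xbp1 had log2 values of 3.99, 4.98 and 4.10 in WT and 5.56, 4.58 and 5.80 in AMPK KO. As for Txndc5, WT sample 2 lay above AMPK KO sample 2, and the log2 fold change was 0.96 (standard error 0.32, limma, adjusted p = 0.101). Xbp1 passed in 2 of 14 alternatives, those that left out AMPK KO sample 2 or WT sample 2, and over all 14 its adjusted p in limma ran from 0.00547 to 0.358 and its log2 fold change from 0.71 to 1.32.

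Of the APRIL and BAFF genes, whose receptors are on the list, Tnfsf13 had 4, 18 and 6 reads in WT and 37, 56 and 44 in AMPK KO, with log2 means of 0.92 and 2.30. It passed the filter only through AMPK KO, so this is a description. Tnfsf13b lay below the filter. In the MHC class II list, which B cells share with macrophages and dendritic cells, 3 of 9 tested genes passed, all higher, namely H2-Aa at 0.89, Cd74 at 0.88 and H2-Eb1 at 0.62. Their calls held in 12, 7 and 5 of 14 alternatives.

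Markers of several other cell types also differed between WT and AMPK KO, where cell sex differed too. For macrophages, 6 of 10 tested markers passed, all higher, including C1qa at 1.85 and Cd14 at 1.87, and the summed level of the 12 markers was 340 to 377 in WT and 627 to 1217 in AMPK KO. For T cells, 4 of 14 tested markers passed, all lower, namely Cd3g, Cd3e, Cd28 and Bcl11b, and the summed level of the 15 markers was 3723 to 3950 in WT and 2867 to 3314 in AMPK KO. The calls of these 4 genes held in 12, 8, 6 and 8 of 14 alternatives, in the order named. Of 9 tested markers of plasmacytoid dendritic cells, 6 had higher and 3 lower means in AMPK KO, with a median of 0.21, and Cox6a2 passed as higher at 1.81 and Ccr9 as lower at -1.97. The summed level of these 10 markers was 346 to 426 in WT and 354 to 416 in AMPK KO. The cells behind the changes of Cox6a2 and Ccr9, which went opposite ways, were not identified. Of the NK cell markers, 1 of 7 passed, Klrk1 at 1.62, and of the neutrophil markers 2 of 8 passed, Ltf and Ngp, both lower. The calls of Cox6a2, Klrk1 and Ltf held in 7 of 14, 9 of 14 and 7 of 13 alternatives, and those of C1qa, Cd14, Ccr9 and Ngp in all 14. Conventional dendritic cell, CD8 T cell and erythroid markers gave 0 calls among 6, 2 and 7 tested genes in limma, of which 0, 2 and 0 had an unadjusted p under 0.05. The summed level of the CD8 T cell markers was 231 to 305 in WT and 321 to 376 in AMPK KO. That of the erythroid markers was 3992 to 4599 in WT and 2891 to 5574 in AMPK KO. The part of these cell types, or of B cells and plasma cells, in the change of Jchain was not tested.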

How the data were processed

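RNA from WT and AMPK KO CD4 T cells, 3 samples each, was sequenced from Lexogen QuantSeq 3′ libraries made from 500 ng of total RNA. The authors applied TMM and CPM normalization. Their deposited values, 1 per gene symbol, are log2 of the normalized value plus 1. The submitters' processing notes name Bowtie2, bedtools and mm10. The counting tool and its strand setting are not given in the sources used here. Of 23282 lines, 35 symbols occur more than once, and no member is among them.

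Of the values up to 100 reads, 100% in each library were whole reads to within 0.1, so reads were recovered. Reads are not independent molecules. Deposited log2 values were tested with limma 3.58.1 (eBayes with trend, genotype only) in R 4.3.3, two-sided with Benjamini-Hochberg adjustment, for genes with a mean of at least 1. The script was tested on simulated data. Single genes were tested by an exact permutation test over 20 assignments. Positions and overlaps came from GENCODE M21 and promoters from RefSeq, both GRCm38, the build of mm10. Tables and plots used Python 3.11.15 with pandas 2.3.3 and matplotlib 3.10.9.

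The members and lists were chosen with earlier results of these data known. All plasma cell genes, and B cell genes past the threshold or with groups apart and a mean of at least 3, were given by sample. At most 5 genes past the threshold were named from each further list, together with Xbp1, Prdm1, Irf4, Cd3e, Cd4 and Prkaa1. A further gene of that rule is not reported here. Cd79a, Cd79b, Ebf1, Pax5 and Tnfsf13 were singled out after their values were seen. Alternatives were quantile normalization, scaling to reads outside Rn45s, a pseudocount of 0.25, no filter (genes at 0 in every library left out), a mean of at least 3, voom on recovered reads, robust spread, a replicate block and each library left out.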

Additional observations from a re-analysis of the deposited data

How the results depend on the processing

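The rise of Jchain passed the threshold in all 14 alternatives, with log2 fold changes of 2.53 to 2.67 and adjusted p values of 1.5e-09 to 8.4e-05 in limma. For the plasma cell genes the number past the threshold was 2 with a mean of at least 3 and 2 with a robust spread, through Mzb1 at adjusted p values of 0.0494 and 0.0491, and 1 to 2 with single libraries left out. For the B cell genes it was 0 to 1 with single libraries left out. Over all genes, the number was 637, and it was 308 without the filter, 102 with the replicate block and 127 to 1246 with single libraries left out. Leaving out WT sample 1 gave 127, WT sample 3 gave 140, AMPK KO sample 1 gave 172 and AMPK KO sample 2 gave 1246, and the cause was not tested. When values were scaled to reads outside Rn45s, 32.5% of the calls were higher in AMPK KO, against 45.1% as deposited. The replicate numbers gave no sign of pairing, since deviations of same-numbered samples correlated at -0.08, -0.32 and -0.16, and no sample correlated best with its own number. Deviations from a group mean cancel out within the group, so these correlations cannot exclude pairing. The replicate block left the 1 plasma cell call and the 0 B cell calls in place.

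Of the log2 fold changes of single members over all alternatives, 415 kept their direction and call, 5 newly passed and 22 turned their sign. With scaling to reads outside Rn45s, Cd79a was -0.045, Cd72 -0.021, Fkbp11 -0.028 and Tent5c -0.024. Fkbp11 was also -0.11 with quantile normalization, -0.051 with a pseudocount of 0.25 and -0.11 with voom. With single libraries left out, the ranges were Cd79a -0.19 to 0.21, Cd22 -0.23 to 0.035, Cd72 -0.066 to 0.17, Ly6d -0.066 to 0.21, Blnk -0.51 to 0.004, Btk -0.0033 to 0.50, Bank1 -0.043 to 0.19, Spib -0.0078 to 0.31, Fkbp11 -0.37 to 0.22 and Tent5c -0.043 to 0.19. No value could be had for immunoglobulin constant genes. Genes with few reads, such as Pax5, Tnfrsf17, Fkbp11 and Tnfrsf13b, were measured with little precision.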

Other observations

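Further B cell lists were nearly silent. Of 6 early B cell genes, only Dntt passed the filter, with a log2 fold change of 0.13, and Vpreb2 had 0 reads in every library. Of 6 germinal centre genes, S1pr2 at 0.13 and Mybl1, which passed the filter only through WT, at -0.51 were tested, and 0 passed in limma, with 0 at an unadjusted p under 0.05. Ighmbp2, the helicase gene that matched the immunoglobulin pattern by its letters, had a log2 fold change of 0.50 (standard error 0.36, limma, adjusted p = 0.460).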
